A study of Mus musculus with 2 samples.

Results

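A set of 9 genes of sterol sensing, uptake and efflux was followed in the optic nerve of control and *Tcf7l2* mutant mice, namely *Srebf1*, *Srebf2*, *Scap*, *Insig1*, *Insig2*, *Nr1h2*, *Abca1*, *Abcg1* and *Apoe*. They were taken by symbol, as 9 of 23951 symbols listed in both libraries. Cells sense cholesterol through the SREBP proteins, which are held in the endoplasmic reticulum by Scap and the Insig proteins while sterol is plentiful, and which move to the Golgi, are cleaved and switch on the genes of sterol and fatty acid synthesis when sterol runs low. The LXR receptors work at the other end. They are activated by oxysterols and switch on genes that export sterol, such as the transporters *Abca1* and *Abcg1* and the lipoprotein component *Apoe*. In white matter, oligodendrocytes make most of their own cholesterol for myelin, and astrocytes are the main source of apolipoprotein E. The 5 genes *Srebf1*, *Srebf2*, *Scap*, *Insig1* and *Insig2* are called the SREBP side below, and the 4 genes *Nr1h2*, *Abca1*, *Abcg1* and *Apoe* the LXR side.

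RNA-seq was done on optic nerves taken on postnatal day 12, with 1 library from control mice and 1 from mutant mice. The controls carried 1 floxed *Tcf7l2* allele (labelled c/+) and the mutants 2 (labelled c/c), and both carried the Olig1-cre driver, which is active in the oligodendrocyte lineage. Recombination removes the exon for the DNA-binding HMG domain, so that a shortened *Tcf7l2* RNA and protein can still be made, and the controls are heterozygous for this deletion. The number of animals per library is not stated, and no error between animals can be given for any value.

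The optic nerve is a bulk sample, so a level in it joins the number of cells of a type and the RNA in each, and fewer cells and less RNA per cell cannot be told apart. Markers fixed for mature oligodendrocytes were the most abundant in both libraries, and all 10 were lower in the mutant library, with a summed level of 31929 FPKM (fragments counted per kilobase of transcript, scaled to the mapped total) in control nerve and 18265 FPKM in the mutant. Of 10 astrocyte markers, 9 were higher in the mutant on the deposited scale, with sums of 5181 and 6158 FPKM. All 6 meningeal fibroblast markers were also higher on that scale, with sums of 1133 and 1515 FPKM. No marker of these 3 lists was listed at 0. Over the 14199 genes compared below, 45.4% were lower in the mutant on the deposited scale. The nerve holds axons but no neuronal cell bodies, and the nuclear marker of neurons, *Rbfox3*, was at 0.66 and 1.51 FPKM. All 4 neuronal markers compared were higher in the mutant on the deposited scale, 3 of them past a fold change of 1.5, with sums of 25.9 and 38.6 FPKM over the list. *Tcf7l2* itself had 17.8 FPKM in control nerve and 14.6 FPKM in the mutant, a log2 ratio of −0.28. The table gives no value per exon, so this row does not check the deletion. The depth was 27624000 fragments for the control library and 39938000 for the mutant library, and 3 fragments on 1 kb of transcript then stand for 0.11 and 0.075 FPKM.

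All 9 genes were detected in both libraries, and their levels spanned 3 orders of size. In the control library the order from high to low was *Apoe*, *Insig1*, *Srebf2*, *Srebf1*, *Nr1h2*, *Scap*, *Insig2*, *Abca1* and *Abcg1*. In the mutant library *Srebf1* moved to rank 2 and *Insig1* to rank 4, and *Abca1* was above *Insig2*. FPKM is already divided by transcript length, so the levels of different genes can be set side by side. The authors' software, Cufflinks, gives each FPKM a confidence interval that covers sampling of fragments within a library and no variation between animals. The control intervals of *Scap* and *Nr1h2* overlapped each other. In the mutant library the intervals of *Srebf1* and *Srebf2* overlapped, as did those of *Abca1* and *Insig2*, so the order within these pairs is not fixed by the data.

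**Figure D1:**
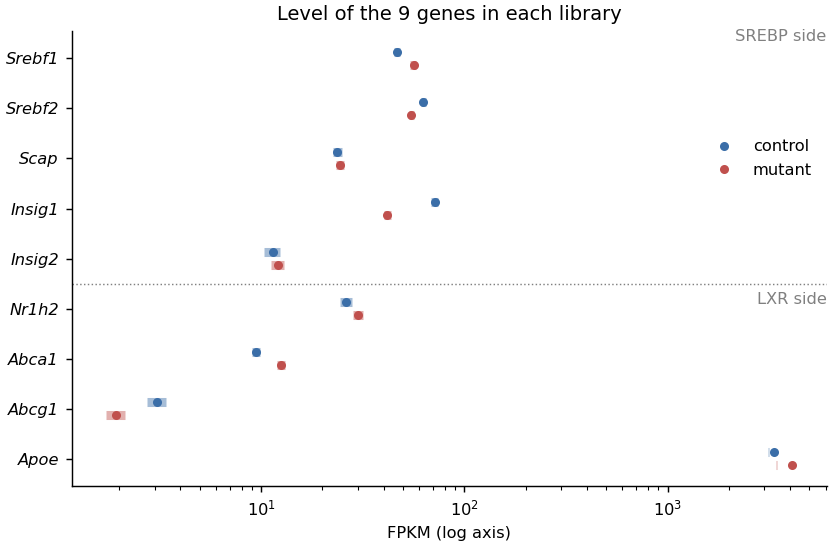
Level of the 9 genes in FPKM on a log axis, in the control library (blue) and the *Tcf7l2* mutant library (red). Points are the deposited FPKM and thick bars the Cufflinks intervals, with the SREBP side above the dotted line and the LXR side below it. *Apoe* lies near 3339 and 4114 FPKM, outside its own bars, and the 8 other genes lie between 1.93 and 71.3 FPKM.

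Ratios are given on the log2 scale, with 0.1 added to each FPKM before the mutant was divided by the control, and a fold change above 1.5 served as the cutoff. With 1 library per genotype there is no test for any gene. Of the 9 genes, 2 were past the cutoff, *Insig1* and *Abcg1*, and both were lower in the mutant. None was past a fold change of 2. Over the 14199 genes compared, which reached an FPKM of 1 in the control, the mutant or both, 8.52% were past the cutoff downward and 15.4% upward, or 23.9% in either direction, so the number of members past it is no result about the 9 genes as a set. Compared genes had a median log2 ratio of 0.05, and −0.83 and 1.18 bound the middle 90% of them. The Cufflinks intervals of control and mutant lay apart for 52.4% of compared genes, so intervals that lie apart do not mark a gene out. Another 6 of the 9 genes had a higher FPKM in the mutant and *Srebf2* a lower one. Of all compared genes, 45.4% were lower in the mutant on the deposited scale, so these counts are no result about the set either. When all rows of each library were rescaled to a sum of 1000000, the median of all compared genes moved to −0.61, 7398 genes were past the cutoff downward and 640 upward in place of 1210 and 2185, and all 9 members had a negative ratio, so that a higher level of any of the 6 is stated here for the deposited scale only. The ratio of *Scap*, at 0.04, also turned slightly negative, to between −0.0066 and −0.03, on centring, on the 75th percentile scale and with the named rows rescaled. The other 5 genes stayed higher on each of these scales. Among the scales tried, only the sum over all rows turned their sign.

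**Figure D2:**
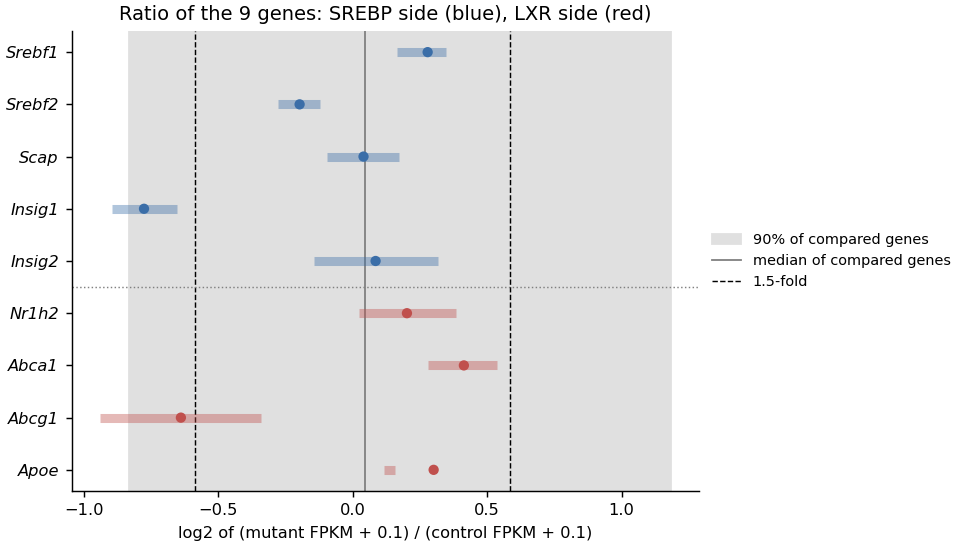
Log2 ratio of mutant to control FPKM for the 9 genes on the deposited scale, SREBP side in blue and LXR side in red. Bars run from the smallest to the largest ratio that the Cufflinks bounds of both libraries allow, the grey band holds 90% of the 14199 compared genes, and dashed lines mark a fold change of 1.5. *Insig1* at −0.78 and *Abcg1* at −0.64 lie past the lower line, and the point of *Apoe* at 0.30 lies beyond its own bar. The genes with points above 0 fall below 0 when all rows are rescaled to a common sum.

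The SREBP side and the LXR side did not separate. The median log2 ratio was 0.04 over the 5 SREBP-side genes, with a range from −0.78 to 0.28, and 0.25 over the 4 LXR-side genes, with a range from −0.64 to 0.41. *Scap* is the middle gene of the SREBP side, so that side's median changed sign with it. The medians differed by 0.21 with the deposited FPKM, and the ranges overlapped over most of their length. Rescaling moves both medians by nearly the same amount, so the same difference with all rows rescaled is no check on it. From interval midpoints the difference was 0.13. *Apoe*, whose FPKM lie outside their intervals, is 1 of the genes that set the LXR-side median. Each side held 1 gene past the cutoff and each also held genes with the opposite sign, on the deposited scale. This comparison has no test, since the members of a side are different genes measured in the same pair of libraries.

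The promoters of *Srebf1* and *Abca1*, which lie on different sides of the comparison, are shown because they share an element, and that of *Insig1*, the member with the lowest ratio, stands beside them. The RefSeq table for GRCm38.p6 held windows of 300 bases, 250 before and 50 after a start, for 8 of the 9 genes (15 windows). *Abcg1* had none. The longest stretch shared by the bases before the most downstream start of *Srebf1* (start 3) and those before the start of *Abca1*, with up to 3 unlike bases allowed, was 22 bases long and held 19 like bases. It reads TGACCGNNAGTAACCCCNGCGC, with N for an unlike base, lies 182 to 161 bases before start 3 of *Srebf1* and 67 to 46 bases before that of *Abca1*, and is in capitals in both sequences below. A known LXR response element of each promoter falls in it, as read on the other strand. LXR elements outside the stretch were not looked for and are not marked. Searched on both strands, the whole stretch was in no other of 32851 windows, and its leading 15 letters, TGACCGNNAGTAACC, were in 3 (0.00913%), the other being that of *Fasn*, the fatty acid synthase gene. The pair of windows was chosen for the known elements, and the stretch was read from these same windows. Its rarity elsewhere therefore does not set the genes apart. In the *Insig1* window the capitals mark CACNCCAC, a shorter core of the sterol regulatory element, which lies 9 to 2 bases before the start on the reverse strand and which 6.24% of windows hold. The bases before the starts read, 5′ to 3′ on the strand of the gene:
Srebf1, start 3, chr11:60210472-60210721, minus strand: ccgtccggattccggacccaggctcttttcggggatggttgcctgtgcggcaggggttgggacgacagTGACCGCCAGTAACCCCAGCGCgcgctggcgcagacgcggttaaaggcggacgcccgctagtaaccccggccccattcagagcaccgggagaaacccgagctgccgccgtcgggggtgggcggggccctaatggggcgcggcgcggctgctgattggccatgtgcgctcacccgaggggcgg
Abca1, chr4:53159896-53160145, minus strand: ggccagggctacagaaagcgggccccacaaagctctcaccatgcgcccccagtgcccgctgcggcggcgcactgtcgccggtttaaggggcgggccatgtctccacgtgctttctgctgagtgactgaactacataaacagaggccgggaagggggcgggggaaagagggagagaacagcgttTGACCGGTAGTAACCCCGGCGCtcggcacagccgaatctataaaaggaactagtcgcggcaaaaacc
Insig1, chr5:28071162-28071411, plus strand: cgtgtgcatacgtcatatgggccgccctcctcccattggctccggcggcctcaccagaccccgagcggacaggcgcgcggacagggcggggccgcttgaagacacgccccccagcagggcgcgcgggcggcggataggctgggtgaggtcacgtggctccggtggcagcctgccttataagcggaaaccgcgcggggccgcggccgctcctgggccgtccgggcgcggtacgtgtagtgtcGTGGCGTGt
A match is a description of the letters and shows no binding. The longer sterol regulatory element TCACNCCAC, which contains the shorter core, was in none of the 15 windows of the members and in 1.24% of all windows. The TCF/LEF letters CTTTGA were in 1 of the 15, before start 2 of *Insig2*, and in 16% of all windows. The Sp1 letters GGGCGG were in 9 of the 15 and the NF-Y letters CCAAT in 5, beside 35.7% and 37.4% of all windows. *Fasn* was at 73.9 FPKM in the control library and 62.6 in the mutant, and its log2 ratio of −0.24 has the opposite sign to those of *Srebf1* (0.28) and *Abca1* (0.41) on the deposited scale. It is named here for its letters and not by the rule for named genes.

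*Insig1* encodes the endoplasmic reticulum protein that retains the Scap and SREBP complex and is itself a target of SREBP. It stood at 71.3 FPKM in the control library (interval 68.5 to 74.5) and at 41.6 FPKM in the mutant (40.0 to 43.5), a log2 ratio of −0.78 or 1.71-fold lower. The intervals are far apart, and the Cufflinks bounds allow ratios from −0.89 to −0.65. Of all compared genes, 5.54% had a lower ratio. The files place the gene on chromosome 5 from 28397952 to 28405204 in the mm9 build.

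*Insig2*, the second gene of the pair, encodes a protein with the same retention role and is not known as an SREBP target in the way *Insig1* is. Its level was 11.4 FPKM in the control (10.4 to 12.4) and 12.1 FPKM in the mutant (11.2 to 12.9), on chromosome 1 from 123200930 to 123229166. The intervals overlapped and the bounds allow log2 ratios from −0.14 to 0.32, so no difference was detectable at this depth. Within a library, the ratio of *Insig1* to *Insig2* was 6.26 in control nerve and 3.44 in the mutant. Such a ratio does not depend on how the libraries are scaled. The bounds allow 5.52 to 7.19 in control nerve and 3.09 to 3.88 in the mutant, so the ranges do not overlap. These bounds cover sampling of fragments only, and the pair was chosen after the levels had been seen.

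*Srebf2* encodes SREBP2, the factor that mainly drives cholesterol synthesis genes. It was at 62.3 FPKM in the control (61.2 to 64.7) and 54.3 FPKM in the mutant (53.4 to 56.3), a log2 ratio of −0.20 and 1.15-fold lower, on chromosome 15 from 81977683 to 82035802 in the control table. The difference was larger than the intervals and well short of the cutoff, and 27.1% of compared genes had a lower ratio. *Srebf1* encodes the SREBP1 proteins, which mainly drive fatty acid synthesis genes, and of which the SREBP1c form is also an LXR target. Its level was 46.8 FPKM in the control (45.2 to 48.4) and 56.7 FPKM in the mutant (54.2 to 57.5), a log2 ratio of 0.28 on the deposited scale, on chromosome 11 from 60012591 to 60034106. The ratio of *Srebf1* to *Srebf2* within a library, which no scaling of the libraries can move, was 0.75 in control nerve and 1.04 in the mutant, with bounds of 0.70 to 0.79 and 0.96 to 1.08. *Srebf2* was thus the more abundant of the pair in the control, and in the mutant library the order was not set.

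The *Srebf1* row cannot be split into its forms. It lists 1 start and spans 21516 bases in the files. In RefSeq, the starts of *Srebf1* lie 23498, 21544 and 11388 bases from the far end of the gene, so the span of the row is closest to that of start 2. Start 3, whose window holds the shared LXR element, lies inside the gene as RefSeq draws it, and fragments from it would fall in the same row. *Scap*, the escort of the SREBP proteins that senses cholesterol in the membrane, was at 23.7 FPKM in the control (22.6 to 24.9) and 24.4 FPKM in the mutant (23.3 to 25.5). The intervals overlapped, with ratios from −0.10 to 0.17 allowed. *Scap* lies on chromosome 9 from 110235792 to 110287453. Beside it, *Insig1* was 3.01 times as abundant in control nerve and 1.71 times in the mutant.

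On the LXR side, *Nr1h2* encodes LXR beta, the receptor form found in most tissues. It was at 26.1 FPKM in the control (24.3 to 28.0) and 30.1 FPKM in the mutant (28.4 to 31.8), on chromosome 7 from 51804986 to 51809335. The log2 ratio was 0.20 on the deposited scale, and the gap between the intervals was narrow.

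*Abca1* encodes the transporter that loads cholesterol and phospholipid onto lipid-poor apolipoproteins. It was at 9.39 FPKM in the control (8.99 to 9.88) and 12.5 FPKM in the mutant (12.01 to 13.1), a log2 ratio of 0.41 on the deposited scale, which was the highest of the 9 genes. It stayed below the cutoff at 1.33-fold, and 77.5% of compared genes had a lower ratio. The gene lies on chromosome 4 from 53043661 to 53172767. *Abcg1* encodes a transporter that passes sterol to lipoprotein particles that already carry lipid. It was the least abundant member, at 3.06 FPKM in the control (2.73 to 3.38) and 1.93 FPKM in the mutant (1.72 to 2.13), a log2 ratio of −0.64 or 1.56-fold lower, on chromosome 17 from 31194639 to 31254926. With a pseudocount of 1 in place of 0.1 its ratio was −0.47, within the cutoff. Of compared genes, 7.44% had a lower ratio.

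The transporters thus differed in opposite directions on the deposited scale, although both are textbook LXR targets. The ratio of *Abca1* to *Abcg1* within a library, free of the scaling, was 3.06 in control nerve and 6.49 in the mutant. The bounds allow 2.66 to 3.62 and 5.63 to 7.63, and so the mutant value lay above the control range. The ratio of *Abca1* to *Insig1*, which sets an efflux gene against an SREBP target, was 0.13 in control nerve and 0.30 in the mutant. These ratios between members were chosen after the levels had been seen.

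*Apoe* encodes the main lipoprotein component of the brain and was among the most abundant genes of the nerve, with 99.96% of compared genes below it in the control. It was at 3339 FPKM in control nerve and 4114 FPKM in the mutant, a log2 ratio of 0.30 on the deposited scale, on chromosome 7 from 20281593 to 20284515. Both values lie above their own intervals, which were 3109.8 to 3164 in control nerve and 3429 to 3471 in the mutant, so the intervals do not describe the error of these values. From the midpoints of the intervals the log2 ratio was 0.14. The 9 of 10 astrocyte markers and 7 of 10 markers of microglia and macrophages that were higher in the mutant on the same scale had median log2 ratios, over their whole lists, of 0.34 and 0.15. Their part in the levels of *Apoe* and *Abca1* was not tested. The summed astrocyte markers were 1.19 times and the summed microglial markers 1.21 times as high in the mutant. The ratio for *Apoe* was 1.23 from the deposited FPKM, which lie outside their intervals. *Gfap* made up most of the astrocyte sum, and single astrocyte markers ran from 0.82 times for *Aqp4* to 1.81 times for *Gjb6*.

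**Figure D3:**
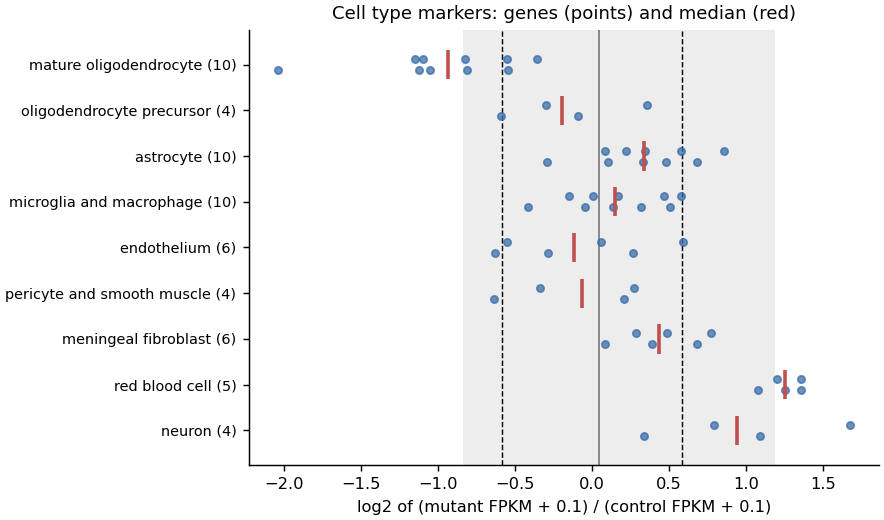
Log2 ratios of the marker genes of 9 cell types on the deposited scale, with the median of each list in red, the number of genes in brackets and the grey band for 90% of compared genes. All 10 mature oligodendrocyte markers lie below 0 with a median of −0.94, the astrocyte median is 0.34 and the 5 red blood cell symbols, of which *Hba-a1* and *Hba-a2* share merged rows, lie between 1.08 and 1.36. With all rows rescaled to a common sum, every list moves down with the median of the compared genes, which becomes −0.61.

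The genes that SREBP acts through were set beside the members. Over all compared genes, 8.52% passed the cutoff downward and 15.4% upward on the deposited scale, and 45.4% were lower. With all rows rescaled, 7398 of the 14199 passed it downward and 640 upward. Of 20 cholesterol synthesis enzymes, all were lower in the mutant and 11 passed the cutoff downward, with a median log2 ratio of −0.62. None of them passed a fold change of 2, and all 20 passed 1.5 when all rows were rescaled. *Cyp51*, a sterol demethylase, was at 80.6 and 42.7 FPKM (−0.92) and *Fdps*, which makes farnesyl diphosphate, at 225.1 and 127.4 FPKM (−0.82). The ratio of *Insig1* lay between those of *Fdps* and the list's median, and that of *Srebf2*, at −0.20, near the upper end of the list at −0.19. The mature oligodendrocyte markers had a median of −0.94, and the part of fewer oligodendrocytes or less of their RNA in the level of *Insig1* was not tested. Of 10 fatty acid synthesis enzymes, 8 were lower and 2 passed the cutoff downward, *Elovl6*, a fatty acid elongase (49.7 to 30.0 FPKM, −0.73), and *Acss2*, which makes acetyl-CoA from acetate (55.1 to 33.2 FPKM, −0.73). None passed a fold change of 2, and 8 passed 1.5 downward with all rows rescaled. The list's median was −0.35, while *Srebf1* had a ratio of 0.28 on the deposited scale.

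None of the 15 genes for transport, cleavage and degradation of SREBP and Insig passed the cutoff on the deposited scale, where their median log2 ratio was 0.04. With all rows rescaled 9 of them passed it downward, beside 7398 of the 14199 compared genes. *Mbtps1*, the site-1 protease that cuts SREBP and one of the more abundant of them, was at 32.9 and 45.3 FPKM, a log2 ratio of 0.46 on the deposited scale.

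LXR acts as a pair with a retinoid X receptor. Of 10 genes for its partners and corepressors, 3 passed the cutoff downward and 1 upward on the deposited scale, and 7 and 0 with all rows rescaled. Over all compared genes, 8.52% passed it downward and 15.4% upward as deposited, and 7398 and 640 of 14199 with all rows rescaled. *Nr1h3*, which encodes LXR alpha, was at 6.90 FPKM in control nerve and 3.84 in the mutant (−0.83), while *Nr1h2* had a ratio of 0.20 on the deposited scale. The retinoid X receptor genes *Rxra* and *Rxrg* had opposite signs on that scale, at 6.22 and 9.99 FPKM (0.68) and at 4.87 and 2.85 FPKM (−0.75). The Cufflinks bounds allow −1.26 to −0.12 for *Nr1h3*, −1.29 to −0.05 for *Rxrg* and 0.49 to 0.87 for *Rxra*. Each of these ranges reaches inside the cutoff. *Rxrb* was at 18.5 FPKM in control nerve and is listed at 0 in the mutant. A zero in this kind of table can be a failed estimate, so no fold is given, and the 3 counted as lower are *Rxrb*, *Nr1h3* and *Rxrg*. Without it the median of the list was −0.01, and with it −0.06.

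Of 8 LXR targets outside the members, 6 were higher in the mutant on the deposited scale, none passed the cutoff upward, and *Nr1h3* passed it downward. Beside them, 45.4% of all compared genes were lower on that scale. With all rows rescaled 3 of the 8 passed the cutoff downward, as did 7398 of the 14199 compared genes. The list's median was 0.22 on the deposited scale, close to the 0.25 of the LXR-side members. Among genes of oxysterol metabolism, which make and clear the ligands of LXR, 4 were compared and none passed the cutoff on the deposited scale, while 3 passed it downward with all rows rescaled. *Cyp27a1*, a sterol 27-hydroxylase, was at 24.0 and 20.4 FPKM (−0.23) and *Cyp46a1*, a cholesterol 24-hydroxylase, at 16.4 and 12.6 FPKM (−0.38).

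**Figure D4:**
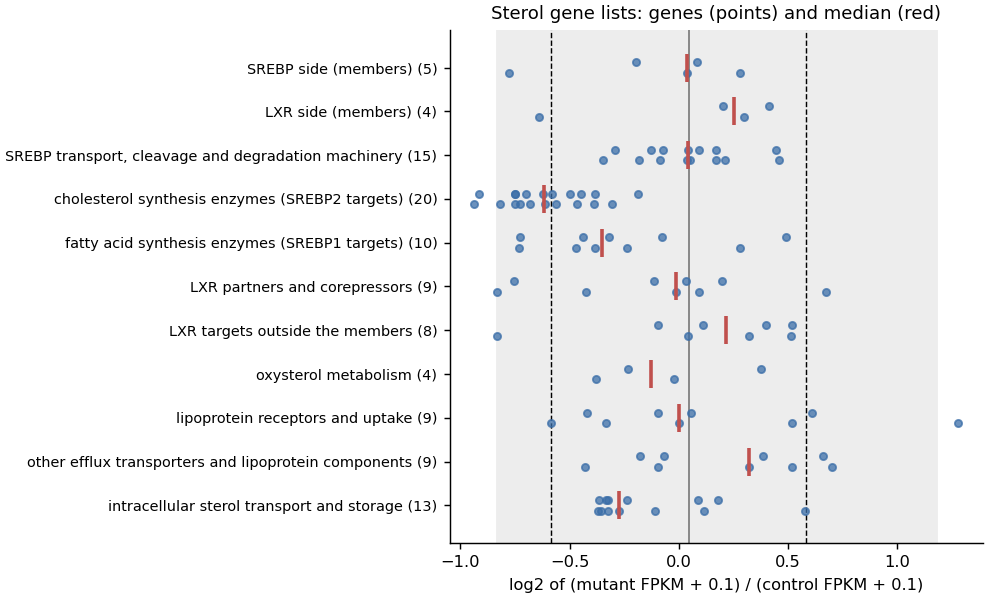
Log2 ratios of the genes of each sterol list on the deposited scale, with the median in red, the number of genes plotted in brackets and dashed lines at a fold change of 1.5. *Rxrb*, listed at 0 in the mutant, is left out. The cholesterol synthesis enzymes lie below 0 as a list, with a median of −0.62, and the LXR-side members and LXR targets lie above it at the median, at 0.25 and 0.22, which becomes −0.42 and −0.44 when all rows are rescaled to a common sum.

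Uptake and handling genes varied among themselves. The counts below stand beside 15.4% of all compared genes past the cutoff upward and 8.52% downward on the deposited scale. With all rows rescaled, 640 of the 14199 were past it upward and 7398 downward. Of 9 compared genes for lipoprotein receptors and uptake, 2 passed the cutoff, both upward on the deposited scale. *Lrp1*, a receptor for lipoproteins that carry apolipoprotein E, was at 39.3 FPKM in control nerve and 95.6 FPKM in the mutant (1.28). This was the highest ratio of any sterol list, but the Cufflinks bounds allow a wide range, from 1.23 to 3.14. *Lrp1* remained higher when all rows were rescaled, where the list held 1 gene past the cutoff upward and 6 downward. *Cd36*, a scavenger receptor, was low at 0.87 and 1.39 FPKM (0.61). It was within the cutoff with a pseudocount of 1, on centring, on the 75th percentile scale and with the named rows rescaled, and below either stricter FPKM filter, while 1 gene of the list passed downward in several of these settings. Of 9 compared genes for other efflux transporters and lipoprotein components, 2 passed the cutoff upward on the deposited scale, and with all rows rescaled none passed upward and 4 downward. They were *Abcg4*, a relative of *Abcg1*, at 3.06 and 5.04 FPKM (0.70), and *Lcat*, which esterifies cholesterol on lipoproteins, at 57.4 and 90.7 FPKM (0.66). With a pseudocount of 1, *Abcg4* fell within the cutoff. *Abcg4* and *Abcg1* had the same level in the control to 3 digits and opposite signs of their ratios on the deposited scale. Of 13 genes for sterol transport and storage inside the cell, none passed the cutoff on the deposited scale and 9 were lower, with a median of −0.28. With all rows rescaled 9 passed it downward, and with a pseudocount of 0.01 on the deposited scale 1 passed it upward. The most abundant were *Npc2*, a lysosomal cholesterol carrier (91.2 and 77.5 FPKM, −0.24), and *Osbpl1a*, a sterol-binding protein (73.0 and 58.3 FPKM, −0.32).

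**Figure D5:**
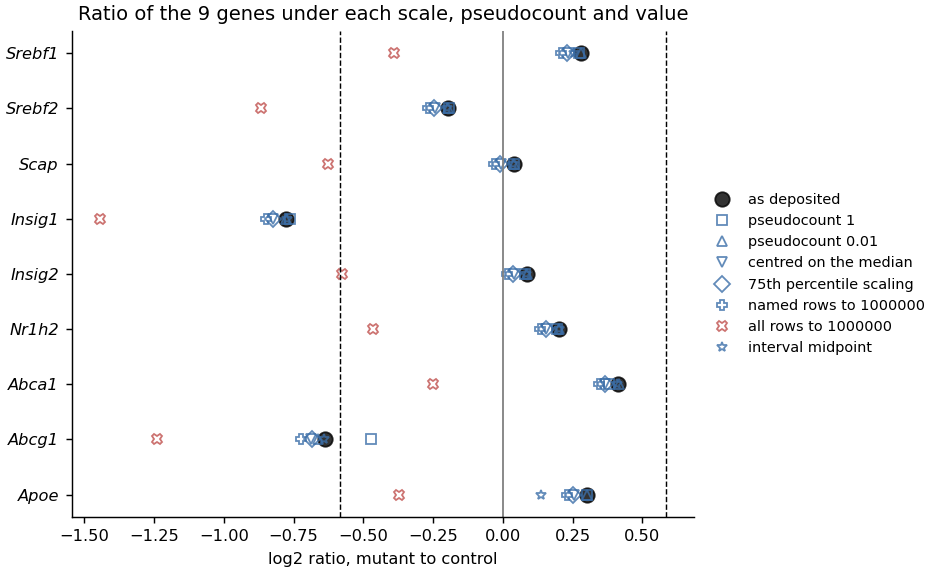
Log2 ratios of the 9 genes as deposited (black) and under other pseudocounts, scales and with interval midpoints (blue), or with all rows rescaled to a sum of 1000000 (red crosses). *Insig1*, *Abcg1* and *Srebf2* lie below 0 under each of the settings plotted, and the other 6 genes lie above 0 as deposited and below it with all rows rescaled. *Scap* also lies just below 0 on the other 3 scales.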

How the data were processed

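Total RNA of optic nerves was extracted with Trizol and made into Illumina libraries, 1 per genotype. TopHat (default settings) and then Cufflinks were run by the authors, and the deposited values are FPKM with interval bounds. The submitters' processing notes name the mm9 build. Software versions are not given in the sources used here. Starts are printed counted from 1, and RefSeq windows are in GRCm38.p6, with no conversion between builds.

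Merged names were split, each symbol taking the FPKM of the row, and rows of a symbol were summed. Of 23951 symbols, the 14199 compared had Cufflinks status OK throughout and reached an FPKM of 1 in the control, the mutant or both. Depth was read from the bounds of unnamed rows under 100 bases, which were whole multiples of 1 fragment for 99.5% of control and 99.7% of mutant bounds within 0.01. Intervals cover counting error only. No test was run, since each genotype had 1 library. The ratio and the cutoff were tried on simulated data with large planted changes and counting noise only. That trial checks the code and says nothing about the smaller ratios reported here. The members, lists and markers were chosen with earlier results of these data known. Named genes are the 9 members, *Tcf7l2*, and from each list the genes past the cutoff (at most 5, or 3 for cholesterol and fatty acid synthesis) or, with none, the 2 most abundant. Some genes under this rule are not reported here. Alternatives changed the pseudocount, filter, scale, row handling and cutoff. The use of interval midpoints was an alternative chosen once the values had been seen. Scripts ran in Python 3.11.15 (numpy 2.4.6, pandas 2.3.3, matplotlib 3.10.9).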

Additional observations from a re-analysis of the deposited data

How the results depend on the processing

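Depth and the single library per genotype limit every value, and an interval from Cufflinks holds no variation between animals. No paired analysis was possible because each genotype has 1 library. A ratio was taken as stable when it moved by less than the spread its Cufflinks intervals allow, and a count when it stayed within 1.5 times. A common sum of 1000000 for all rows in each library, of which unnamed rows take 70.7% in the control and 80.7% in the mutant, had the largest effect. It moved the log2 ratio to −1.44 for *Insig1*, −1.24 for *Abcg1*, −0.87 for *Srebf2*, −0.63 for *Scap*, −0.58 for *Insig2*, −0.47 for *Nr1h2*, −0.39 for *Srebf1*, −0.37 for *Apoe* and −0.25 for *Abca1*, and the medians to −0.63 for the SREBP side and −0.42 for the LXR side. The list medians became −1.29 for cholesterol synthesis, −1.02 for fatty acid synthesis, −0.94 for sterol transport and storage, −0.79 for oxysterol metabolism, −0.72 for LXR partners, −0.66 for uptake, −0.62 for the SREBP machinery, −0.44 for LXR targets and −0.35 for other efflux genes, and 7398 genes were past the cutoff downward and 640 upward. *Apoe* had a ratio of 0.25 on the 75th percentile scale and on centring, 0.23 with named rows rescaled and 0.14 from interval midpoints. A fold change above 2 left 522 genes downward and 975 upward, and an FPKM of at least 5 left 1290 upward. The other 211 values for the members, sides, list medians and overall counts stayed within these bounds. Part of them could not move. The alternatives of row status and row handling returned the same ratio for each member, and rescaling moves both sides nearly alike. The number is thus no measure of how robust the ratios are. Of the counts within the lists, 34 moved by over 1.5 times and 236 did not.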

Other observations

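Rows that overlap the members were also listed, and none enters the comparisons. Inside the *Srebf2* locus the control table has an unnamed row of 801 bases at 16.9 FPKM (interval 11.3 to 15.2). The mutant table has 3 unnamed rows of 132, 109 and 176 bases there, at 166.1, 432.5 and 96.1 FPKM, with intervals of 5.50 to 12.9, 8.04 to 17.2 and 7.82 to 13.9. These FPKM lie far above their own intervals, while the intervals of both libraries cover similar values. *Mir33*, the microRNA gene inside *Srebf2*, is listed at 0 in both libraries, and mature microRNAs were not measured by these libraries. Inside *Insig1*, the control table has an unnamed row of 88 bases at 470.7 FPKM with an interval of 3.29 to 11.9, and the mutant table has none. Inside *Srebf1*, *Mir6921* is at 59.2 FPKM in the control, above its interval of 0 to 3.17, and at 0 in the mutant.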
